A study of Homo sapiens with 5 samples.

Results

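This account is of 501 autosomal protein-coding genes that carried PHF8 at the promoter in a melanoma cell line although none of their transcription start sites (TSSs) lay in CpG-island sequence. A promoter was 1 kb on either side of a TSS. Sequence was called CpG-island-like where the 500 bp centred on a position reached both a GC share of 0.5 and an observed/expected CpG ratio of 0.6, the ratio comparing the CpG pairs present with the number the base composition alone would give. A gene entered when all of its annotated TSSs failed this definition and when each of the 3 PHF8 peak lists had a peak meeting 1 of its promoter windows. The members were therefore chosen by measured values, the peak calls of all 3 replicates, so their numbers and peak heights are given as a description with no test. They are 501 of 5191 genes without CpG-island sequence, a share of 9.65% bound, beside 80.0% of the 14038 genes with CpG-island sequence and 61.0% of all 19229 autosomal protein-coding genes.

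The series holds 5 samples of SKMEL-147, an established human melanoma line, which makes all values those of a single line with no treatment or contrast. Chromatin was precipitated with an antibody against PHF8 in replicates A, B1 and B2, and 2 input libraries, A and B, served as the background and are not analysed here on their own. B1 and B2 share a letter, and the labels do not state that the replicates came from separate cultures. The peak lists held 21506 peaks in A, 20882 in B1 and 20120 in B2. Of the melanocyte lineage markers with CpG-island sequence, MITF, SOX10, PMEL, PAX3, RAB27A and EDNRB were bound in all 3 replicates, and KIT and OCA2 had no peak. Where 3 values of a gene or group follow each other, they are those of A, B1 and B2 in this order.

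PHF8 belongs to the KDM7 family of histone demethylases. Its PHD finger binds histone H3 trimethylated at lysine 4, the mark of active start sites, and its Jumonji domain removes methyl groups linked to silencing, among them dimethylated lysine 9 of H3 and monomethylated lysine 20 of H4. CpG islands are stretches of unmethylated, CpG-rich DNA at most housekeeping promoters, where CFP1 and the SETD1 enzymes lay down trimethylated lysine 4. Promoters without an island are more often those of tissue-specific or inducible genes and can carry lysine 4 trimethylation when they are active.

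The sequences that follow are the 120 bases directly upstream of the bound TSS, 5′ to 3′ on the strand of the gene, from the GRCh37 reference, with each CpG pair in capitals. The members from GPATCH2L to ZBTB6 had no CpG-island sequence at the TSS or under the summit, and TPRN is a bound promoter with CpG-island sequence, shown for contrast.
GPATCH2L (chr14:76618158-76618277, plus strand): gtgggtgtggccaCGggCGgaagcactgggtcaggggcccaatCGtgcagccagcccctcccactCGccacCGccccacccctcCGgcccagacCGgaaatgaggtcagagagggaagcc
ZSWIM1 (chr20:44509746-44509865, plus strand): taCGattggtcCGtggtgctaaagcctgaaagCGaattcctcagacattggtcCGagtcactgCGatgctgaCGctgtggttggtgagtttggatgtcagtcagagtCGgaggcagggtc
IL11 (chr19:55881832-55881951, minus strand): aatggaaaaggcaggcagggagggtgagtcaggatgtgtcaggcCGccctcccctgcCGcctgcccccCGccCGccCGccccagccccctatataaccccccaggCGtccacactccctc
SV2A (chr1:149889394-149889513, minus strand): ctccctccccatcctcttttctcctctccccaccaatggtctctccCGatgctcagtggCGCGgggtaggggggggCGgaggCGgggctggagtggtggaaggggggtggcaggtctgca
ZBTB6 (chr9:125675603-125675722, minus strand): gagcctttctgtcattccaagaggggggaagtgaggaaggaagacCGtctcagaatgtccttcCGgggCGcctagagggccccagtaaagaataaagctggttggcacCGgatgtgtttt
TPRN (chr9:140095194-140095313, minus strand): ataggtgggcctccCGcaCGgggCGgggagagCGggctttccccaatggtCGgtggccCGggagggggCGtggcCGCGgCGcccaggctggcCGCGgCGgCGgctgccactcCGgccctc
They are the 5 highest peaks of that class with at most 30 exon bases in the upstream run. SV2A, which codes for a synaptic vesicle glycoprotein, had fold enrichments of 40.9, 17.05 and 19.2, and ZBTB6, a zinc finger gene, had 25.8, 21.1 and 23.6. The upstream run held 7 CpG pairs in GPATCH2L and in ZSWIM1, 6 in IL11, 5 in SV2A and 4 in ZBTB6, and 15 in TPRN. Over these 120 bases alone, the observed/expected ratio was 0.854 in ZSWIM1, above the 0.794 of TPRN. It was 0.467 in GPATCH2L, 0.438 in IL11, 0.362 in SV2A and 0.48 in ZBTB6. GPATCH2L, ZSWIM1, IL11 and ZBTB6 had a CpG-island-like 500 bp window within 1 kb of a TSS, and SV2A had none. Over the 300 bases from 250 upstream to 50 downstream of the canonical TSS, the median was 9 CpG pairs in the members, 4 in the 4690 genes without CpG-island sequence that were not bound in all 3 replicates, and 29 in bound genes with CpG-island sequence, hereafter CpG-island targets.

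Most members fell short of the island definition in their CpG content and not in their GC share. In 397 members the observed/expected ratio alone was low at every TSS, in 45 the GC share alone, in 42 both, and in 17 the reason varied between TSSs. Among the 4690 genes not bound in all 3 replicates, 2670 were low in the ratio alone and 1934 in both. The median of the highest ratio over a gene's TSSs was 0.507 in the members, 0.292 in those not bound and 0.897 in the CpG-island targets. The ratio stayed below 0.4 in 26.7% of members against 73.1% of the genes not bound. Bound promoters without an island were thus GC-rich as a rule, with a median highest GC share of 0.594 against 0.524 in the genes not bound. Members also had more annotated TSSs, a median of 5 against 2, and 16.8% of members had a single TSS against 38.0% of those not bound, so the members offered more windows in which a peak could fall.

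The share of genes bound rose with CpG content on both sides of the threshold of 0.6, and most between the bins next to it. It was 0.917% (95% Wilson interval 0.312 to 2.66) of the 327 genes with a highest ratio under 0.1 and 3.64% (2.73 to 4.84) of the 1235 genes between 0.2 and 0.3. It reached 12.8% (10.7 to 15.3) between 0.4 and 0.5 and 30.1% (26.7 to 33.7) between 0.5 and 0.6, the bin that holds 201 members. Above the threshold it was 53.9% (51.0 to 56.8) of the 1109 genes between 0.6 and 0.7, but 31.5% (22.0 to 42.9) of the 73 genes in that bin that lacked CpG-island sequence, and 88.7% (87.3 to 89.96) at 1.0 or more. Intervals cover counting error over genes only. At the edge of the definition, PCOLCE, which codes for an enhancer of procollagen processing, entered with a ratio of 0.59952 and a fold enrichment of 12.5, 6.14 and 6.90. ZNF730, with a ratio of 0.600626, stood just outside at 9.31, 8.09 and 6.04. On the GC side, UFC1, the conjugating enzyme for the UFM1 modifier, entered at a share of 0.498 with 16.3, 16.3 and 15.3, and SNRNP35, a component of the minor spliceosome, lay outside at 0.5 with 30.8, 21.1 and 16.8. The unnamed models ENSG00000275740 and ENSG00000267360 were the other members nearest to the thresholds, and SYNJ2BP-COX16 and C12orf60 the other bound genes just outside.

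**Figure D1:**
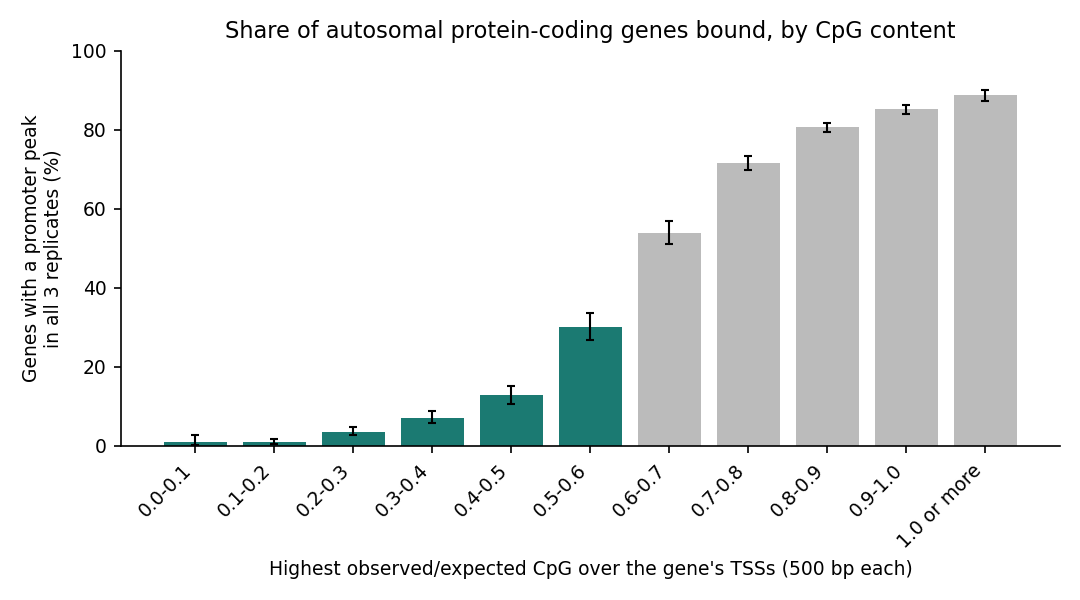
Bars give the percent of autosomal protein-coding genes with a promoter peak in all 3 replicates (y axis) by the highest observed/expected CpG ratio over the gene's TSSs (x axis), with 95% Wilson intervals. The share climbs from 0.917% in the lowest bin to 30.1% in the last bin below 0.6 (green) and 88.7% in the highest bin (grey bars lie above the threshold).

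Whether the bound sequence itself lacked CpG-island character was then read at the summit, the position of highest enrichment in the strongest promoter peak of each gene. The 500 bp around the summit were CpG-island-like in 198, 200 and 193 members, a mean share of 39.3% ± 0.720 (SD, n = 3), against 95.6% of CpG-island targets. The peak also reached the window of a CpG-island-like TSS of another gene in 148, 147 and 146 members. The label of promoters without CpG-island sequence therefore describes the start sites of all members but the bound sequence of only some of them. From these 2 readings the members were sorted into classes. In 262 members (52.3%) neither held in any replicate, and these are called members with a CpG-poor summit. In 144 (28.7%) the peak was shared with a CpG-island-like TSS of a neighbouring gene in all 3 replicates. In 66 (13.2%) the summit lay in CpG-island-like sequence with no such neighbour, and 29 (5.79%) changed between replicates. Members shared peaks with each other too, and 474 distinct strongest peaks stood behind the 501 members in each replicate.

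ZNF408, a zinc finger gene of the shared class, is given as an example of start site and summit. The ratio over 500 bp was 0.518 around its TSS and 0.597, 0.604 and 0.611 around the summit. In A the summit thus fell just short of the CpG-island definition. The first run below is upstream of its TSS and the second is centred on the summit in A, 565 bases upstream of the TSS, again with CpG pairs in capitals.
ZNF408 upstream of the TSS (chr11:46722460-46722579, plus strand): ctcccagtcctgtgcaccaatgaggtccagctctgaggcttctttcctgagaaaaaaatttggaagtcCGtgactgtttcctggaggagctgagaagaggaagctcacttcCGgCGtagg
ZNF408 at the summit (chr11:46721955-46722074, plus strand): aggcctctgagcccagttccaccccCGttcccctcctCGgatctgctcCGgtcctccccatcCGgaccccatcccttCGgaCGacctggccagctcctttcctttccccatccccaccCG
There were 3 CpG pairs in the upstream run and 7 at the summit. In the stricter reading in which no 500 bp window within 1 kb of any TSS was CpG-island-like, 166 members remained, 163 of them with a CpG-poor summit. The other 335 members (66.9%) had such a window, against 17.5% of the genes not bound.

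**Figure D2:**
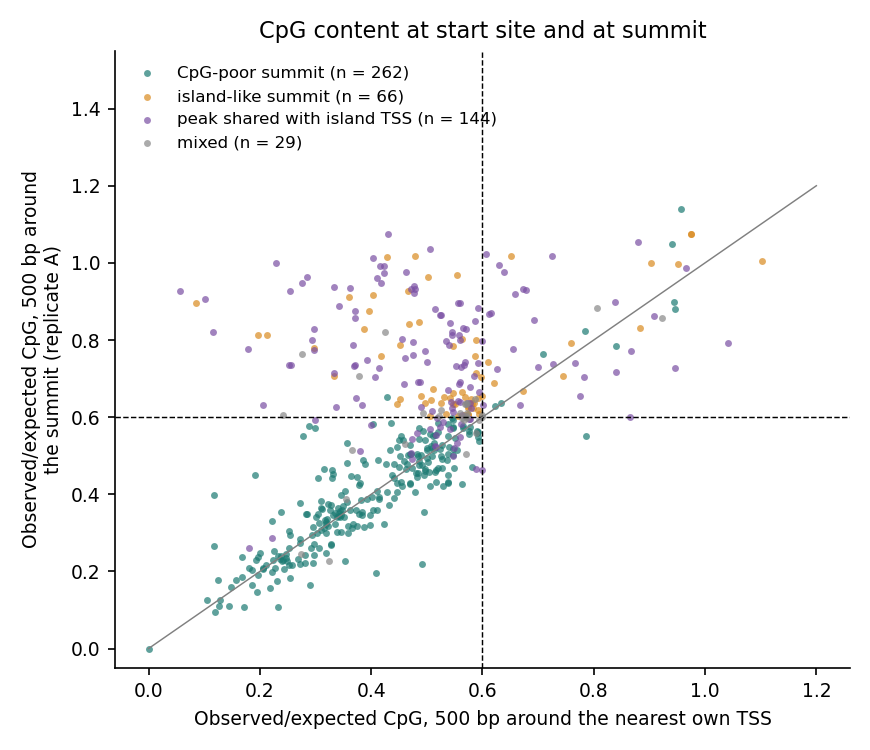
Each point is a member, with the observed/expected CpG ratio of the 500 bp around its nearest own TSS (x axis) and around the summit in replicate A (y axis), coloured by class. Dashed lines mark the ratio of 0.6 and the grey line marks equal values. The 262 members with a CpG-poor summit follow the line of equal values, while most of the 144 with a shared peak lie above it.

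Peaks of the members were lower than those of the CpG-island targets in every replicate. Fold enrichment, the ratio of ChIP fragments over local background at the summit as deposited, had a median of 19.8, 11.1 and 10.5 in the members and of 34.3, 19.98 and 19.1 in the 11229 CpG-island targets. The difference of the log2 medians was -0.79, -0.85 and -0.86, a mean of -0.83 ± 0.0368 (SD, n = 3), or 1.78-fold lower in the members. Peak calls of the same replicates chose both groups, so this difference is a description. The classes were ordered alike in A, B1 and B2. The median was 15.3, 8.94 and 8.21 with a CpG-poor summit, 21.8, 12.5 and 11.8 with an island-like summit of the gene's own, and 28.2, 15.96 and 15.3 with a peak shared with a neighbour's island TSS. The CpG-poor class stood 2.27-fold below the CpG-island targets. The 166 members with no island-like window within 1 kb had medians of 14.8, 8.27 and 7.51.

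ChIP fragments under each summit were recovered from the deposited values and give the depth behind a peak. Their median was 60, 38 and 38 in the members, against 100, 66 and 65 in the CpG-island targets. The CpG-poor class had 46, 31 and 29. The weakest member peaks rested on 12, 9 and 10 fragments, so the lower end of the set lies close to what these libraries could detect, and a promoter without a peak is not shown to lack PHF8. Since the scale of fold enrichment was higher in A, each gene was also given its percentile among the 11730 bound genes of a replicate. The members' median percentile was 16.7 ± 0.619 (SD, n = 3). The lowest 10% of bound genes held 183, 182 and 193 members, a mean of 37.1% of them, and the highest 10% held 13, 13 and 9. Member peaks were narrower, with median widths of 521, 458 and 393 bp against 843, 748 and 699 bp. Fold enrichment over the 501 members ranked alike between libraries, with a Spearman's rho of 0.929 for B1 with B2 and 0.866 for A with B1, over genes that share the same libraries.

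**Figure D3:**
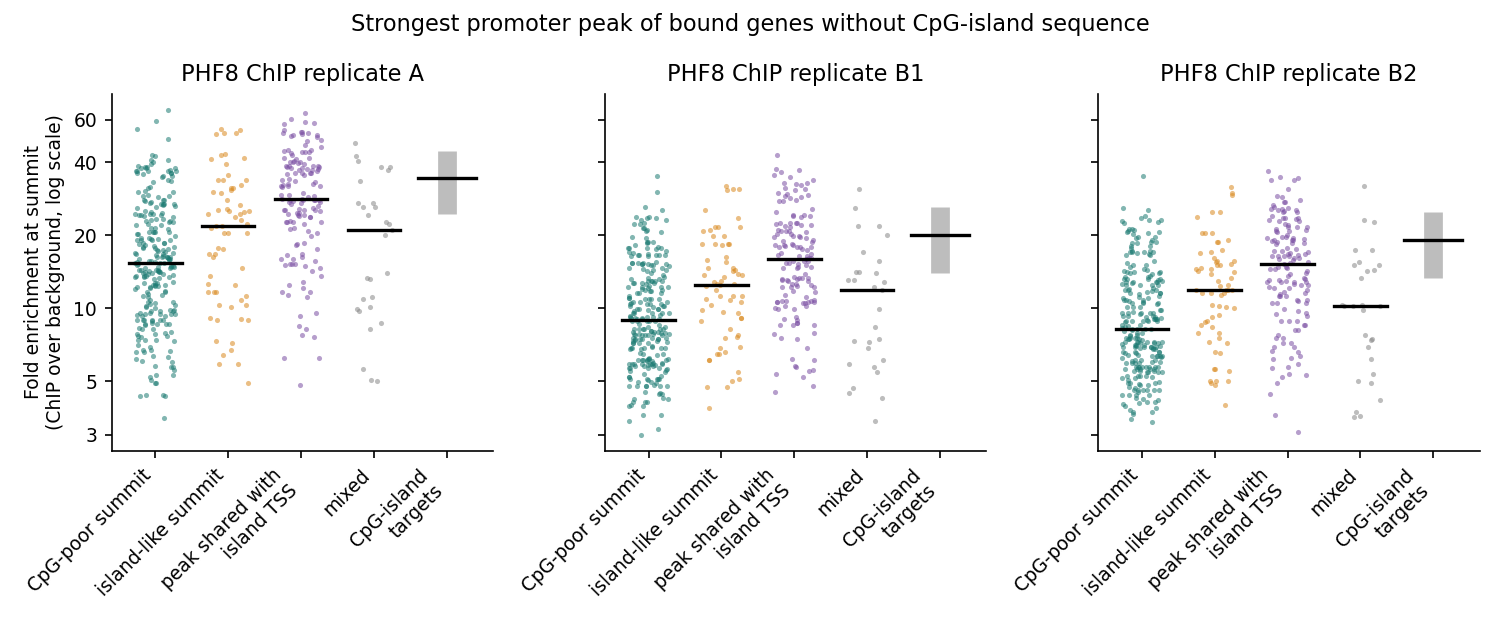
Fold enrichment of the strongest promoter peak (y axis, log scale) in each replicate, with a point per member, black lines at class medians and, for CpG-island targets, a grey box from the lower to the upper quartile. In all 3 panels the CpG-poor class is lowest and the shared-peak class is nearest to the CpG-island targets, as in A with medians of 15.3, 28.2 and 34.3.

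The highest peaks of the set were mostly those of a neighbour. Of the 10 members with the highest mean percentile, 7 shared their peak with a CpG-island-like TSS of another gene. They were C8G, which codes for the gamma chain of complement component 8, ZNF408, TEX38, PPP1R27 and the unnamed models ENSG00000272410, ENSG00000276087 and ENSG00000275674. Fold enrichment at C8G was 57.9, 35.4 and 34.3, with the summit 705 bases upstream of its own TSS in A. ZNF408 had 52.7, 37.6 and 33.7. Of the remaining 3, KAT2A, the GCN5 histone acetyltransferase, had 54.6, 31.0 and 29.7 at an island-like summit 145 bases downstream of its TSS in A, in a coding exon. GLTPD2 had 52.2, 32.1 and 31.5, but its summit lay 1269 bases downstream of the TSS in A, outside the promoter window that the edge of the peak reached. GPATCH2L was the only gene of the 10 with a CpG-poor summit.

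Among members with a CpG-poor summit, GPATCH2L had the highest mean percentile, 96.4 ± 2.27 (SD, n = 3), with the next at 79.9. In A, GRN at 59.2 and PHB1 at 55.1 came nearer to it. GPATCH2L reached 65.8, 35.2 and 35.1, on 175, 103 and 106 fragments. The summit lay in an intron, 144, 147 and 143 bases downstream of the TSS whose upstream sequence is given above, and its observed/expected ratio in A was 0.551, close to the threshold. RDH11, a retinol dehydrogenase, followed with 49.8, 30.2 and 23. GRN, which codes for the lysosomal protein progranulin, had 59.2, 26.2 and 20.8. RBBP9, a hydrolase that binds the retinoblastoma protein, had 38.2, 23.6 and 25.8. PHB1, which codes for the mitochondrial scaffold protein prohibitin, varied most of the 10, at 55.1, 18.2 and 21.3 with a percentile SD of 24.4. The others were ZSWIM1 with 39.3, 25.5 and 21.1, PIP4P2, a lipid phosphatase of endosomes, with 36.2, 23.2 and 24.0, and the zinc finger genes ZNF253, ZNF506 and ZNF205. The ratio at the highest TSS was between 0.4 and 0.6 in all 10, with ZNF205 the lowest at 0.401.

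At the other end, H2AC8, a replication-dependent histone H2A gene, had the lowest mean percentile with fold enrichments of 4.89, 3.86 and 4.00 on 17, 16 and 14 fragments. DNAI3, which codes for a dynein intermediate chain of cilia, had 3.51, 4.45 and 3.65. ACY3, an aminoacylase, had 4.32, 4.22 and 4.09.

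Summits of the members lay mostly just inside the transcribed region, as did those of the CpG-island targets. To keep upstream and downstream apart, genes were set aside if another gene started on the opposite strand less than 2 kb away, which removed 198 members (39.5%) against 55.6% of CpG-island targets. Of the summits within 1 kb of a TSS, 82.0% lay downstream of it in A, 78.9% in B1 and 82.0% in B2, on about 295 members, against 73.0%, 72.7% and 73.3% in the CpG-island targets. The difference was 9.07, 6.17 and 8.78 percentage points, a mean of 8.01 ± 1.6 (SD, n = 3), and an exact permutation test over the 3 replicates (signs flipped, two-sided) gave p = 0.25, the smallest this design allows. The side of the TSS on which a summit lay was not used to choose the members. The rule does bear on the distance of a summit from the TSS, as set out below, and p is fixed once all 3 signs agree. No conclusion is drawn from the test. The CpG-poor class differed from the CpG-island targets by 8.17 ± 2.32 points (SD, n = 3). That class was set by the sequence at the summit, so its value is a description with no test. With a single TSS per gene the difference for all members shrank to 2.26 points. In the main setting the first 250 bp downstream held similar shares, a mean of 71.3% in the members and 70.0% in the CpG-island targets. The higher downstream share of the members thus lay mostly beyond that stretch.

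The distance from the summit to the gene's own start is tied to the classes by their making, since no TSS of a member is CpG-island-like and a summit in such sequence has to lie away from it. The values are therefore a description. The summit lay within 250 bp of a TSS of the gene in 87.2% of CpG-poor members, 59.6% of those with an island-like summit of their own, 25% of those with a shared peak and 82.3% of CpG-island targets (means of the 3 replicates). The mean over replicates of the median distance was 102 bp in the CpG-poor class and 540 bp in the shared class. The annotation under a summit, here and for single genes above, is that of any annotated gene on either strand. It is therefore not always a position in the member itself. By this reading the summit fell, over all members, in a UTR in 37.4%, in an intron in 30.3%, in a coding exon in 21.1%, in another exon in 5.79% and between genes in 5.39%. A coding exon of any gene held the summit in 31.8% of members with an island-like summit of their own and in 13.0% of the CpG-poor class.

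**Figure D4:**
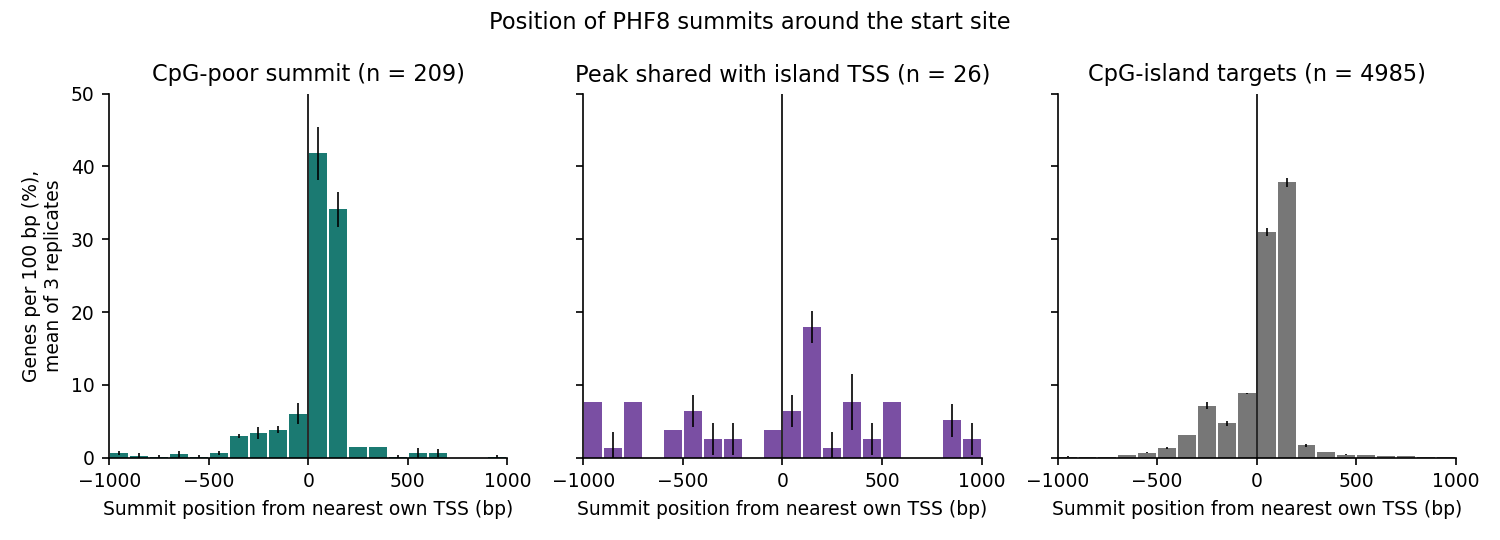
Share of genes per 100 bp (y axis, mean of 3 replicates, error bars SD) by the position of the summit from the nearest TSS of the gene (x axis, negative upstream), leaving out genes near an opposite-strand TSS. CpG-poor members (n = 209) and CpG-island targets (n = 4985) both peak in the first 200 bp downstream, while members with a shared peak (n = 26) are spread over the window.

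Zinc finger genes gave the most members of the 18 lists examined. Of 73 ZNF genes without CpG-island sequence, 42 were bound (57.5%, beside the 9.65% of all such genes), and of 423 with it, 386 were. Many ZNF genes lie in clusters on chromosome 19 and code for repressors of transposable elements, and 27 of 40 without CpG-island sequence on that chromosome were members, 21 with a CpG-poor summit. Over all 42 ZNF members the median of the mean percentiles was 25.7. The 16.7 given for all members is a mean of 3 replicate medians, a slightly different measure. After ZNF408, the highest were ZNF253 with 42.8, 21.4 and 22.4, ZNF506 with 36.6, 22.2 and 25.3, ZNF205 with 36.8, 23.2 and 23, and ZNF35 with 41.4, 20.7 and 19.2, the last at an island-like summit. The lowest was ZNF257 with 7.40, 3.18 and 4.09. ZNF genes thus ran from 0.732 to 93.5 in mean percentile, nearly the full range of the set.

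Replication-dependent histone genes, which supply histones in S phase, were bound in 14 of 20 without CpG-island sequence, against 27 of 44 with it. These are 70% and 61.4%, beside 9.65% and 80.0% of all genes without and with CpG-island sequence. Of the members, 13 lie on chromosome 6, where the main histone clusters are and where 18.3% of genes without CpG-island sequence were members. A mean percentile of at most 10 was found in 11 histone members, beside 187 of all 501 members. The median mean percentile of the histone members was 2.35. Only H4C3 was in the CpG-poor class. The highest were H2BC17 with 16.01, 13.8 and 11.5, H2BC21 with 15.2, 9.91 and 12.5, H3C1 with 19.8, 10.7 and 9.74, H2BC4 with 12.8, 8.98 and 8.87, and H2BC15 with 15.0, 8.66 and 7.17, all 5 with a peak shared with a neighbouring island TSS. Histone and ZNF members thus differed in both rank and class, with 1 of 14 and 28 of 42 in the CpG-poor class.

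Interferon-stimulated genes of the list were members in 7 of 16 cases without CpG-island sequence, against 11 of 13 with it, or 43.8% and 84.6% beside 9.65% and 80.0% of all such genes. DHX58, which codes for the RNA sensor LGP2, had 15.3, 11.9 and 12.5. IRF9, the DNA-binding part of the interferon-activated complex ISGF3, had 18.6, 7.50 and 5.46. IFI6, a mitochondrial protein induced by interferon, had 16.8, 5.90 and 4.17. IFITM3, a membrane protein that restricts viral entry, had 13.3, 5.46 and 6.20. IFIT3 had 12.3, 4.91 and 3.74, and IFIT2 had 6.03, 4.22 and 4.39, both coding for proteins that bind viral RNA. OAS2, a sensor of double-stranded RNA, had 4.90, 3.41 and 5.26. These were low peaks, with a median mean percentile of 4.54, and 6 of the 7 had a CpG-poor summit. BST2, GBP1, GBP2, IFI27, IFI44, IFI44L, IFIT1, OAS1 and XAF1 were not bound in all 3 replicates.

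The element through which ISGF3 acts was looked for as TTTC followed, after any 2 bases, by TTTC on either strand. It was present between 250 bases upstream and 50 downstream of the canonical TSS in 6 of the 7 members and in 6 of the 9 listed genes that were not bound in all 3 replicates. The runs below are the 120 bases upstream of a TSS in IFI6 and IFITM3, which show it, with the match in capitals, which reads GAAA, any 2 bases, GAAA where it lies on the opposite strand.
IFI6 (chr1:27998704-27998823, minus strand): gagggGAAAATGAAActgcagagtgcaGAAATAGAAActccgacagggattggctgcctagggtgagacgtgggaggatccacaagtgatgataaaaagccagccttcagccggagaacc
IFITM3 (chr11:320861-320980, minus strand): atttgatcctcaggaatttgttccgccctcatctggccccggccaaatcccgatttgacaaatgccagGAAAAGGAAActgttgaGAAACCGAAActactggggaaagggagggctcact
A match describes the letters only, and the search was added after these genes were seen among the members.

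**Figure D5:**
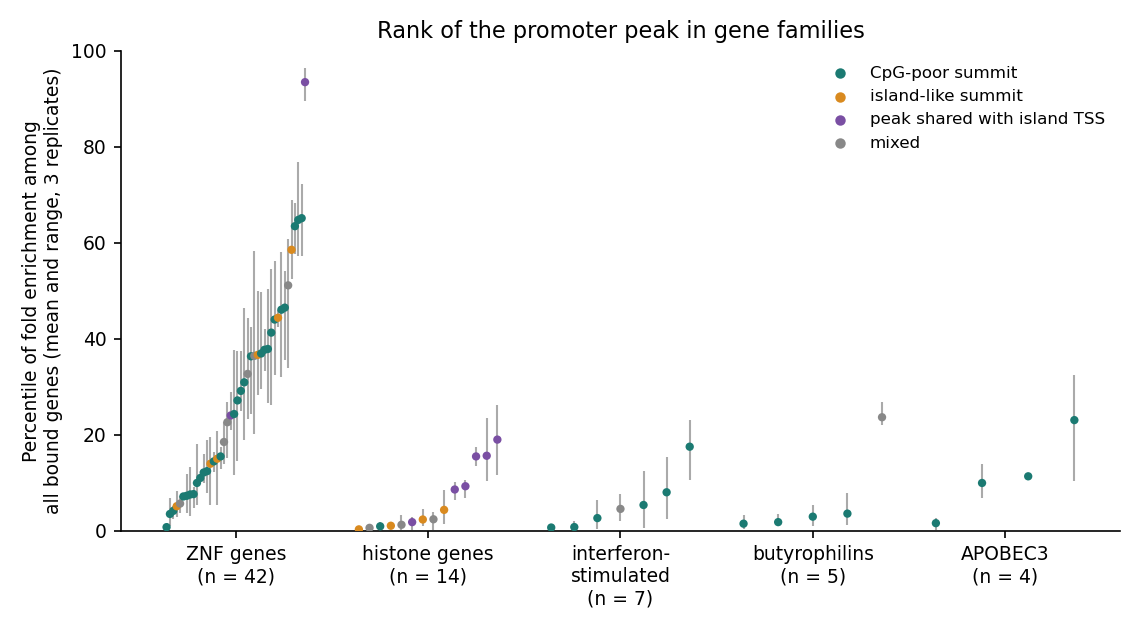
Percentile of fold enrichment among all 11730 bound genes (y axis) for members of 5 gene families, with the mean as a point coloured by class and the range over the 3 replicates as a grey line. ZNF members (n = 42) span most of the scale, while histone (n = 14) and interferon-stimulated (n = 7) members stay at or below mean percentiles of 18.98 and 17.5.

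Other gene lists gave few or no members, and their counts are to be read beside the 9.65% of all genes without CpG-island sequence. Of 63 chemokine and interleukin genes without CpG-island sequence, 2 were bound. IL11, a cytokine of the interleukin 6 family, was the higher at 34.9, 23.9 and 23, a mean percentile of 62.6 ± 8.75 (SD, n = 3), and IL32 had 14.8, 6.48 and 5.91. Among keratin genes it was 2 of 47, KRT8 with 25.8, 12.6 and 12.8 on a shared peak and KRT80 with 8.96, 5.90 and 5.15. Both antigen presentation genes without CpG-island sequence were members, the peptide-trimming enzyme ERAP2 with 7.64, 5.07 and 6.90 and CIITA, the master regulator of MHC class II genes, with 10.9, 4.68 and 4.89. Of 7 oxidative phosphorylation genes, ATP5MF with 33.9, 19.8 and 20.4 and NDUFS4 with 26.7, 15.7 and 14.2 were bound, both at an island-like summit. No member came from 406 olfactory receptor, 12 matrix metalloproteinase (MMP), 7 integrin or 1 proteasome gene without CpG-island sequence. At a share of 9.65%, lists of 12, 7 or 1 genes are too short for an absence to be read. The lists of cytosolic and mitochondrial ribosomal, 5′TOP, mitotic and TGFβ genes had none without CpG-island sequence and so could give no member.

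The pigment genes, which define the melanocyte, were not among the members. At the 9.65% share of all genes without CpG-island sequence, a list of 7 such genes is too short for this absence to be read. DCT, MLANA, SLC45A2, TRPM1, TYR and TYRP1 have no CpG-island sequence at a TSS and had no promoter peak in any replicate, and MC1R, the melanocortin receptor, had a peak in A (5.52) and B1 (6.14) but not in B2. TYR, TYRP1 and DCT code for the enzymes of melanin synthesis. Expression is not analysed here, so whether these genes were active is not read from these peak lists. Of the epithelial and lymphocyte markers without CpG-island sequence, KRT1, KRT5, KRT10, KRT14, CD3E and PTPRC, none had a peak.

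Motifs near the canonical TSS, in the same 300 bases and on both strands, placed the members between the other groups. None of the searched words contains another. The GC box GGGCGG was present in 42.5% of members, 17.0% of genes without CpG-island sequence that were not bound, 77.4% of CpG-island targets and 61.3% of all autosomal protein-coding promoters. The ETS core CGGAAG followed the same order, with 21.0%, 6.55%, 36.1% and 25.4%. Both words hold a CpG pair, so their shares move with CpG content. The TATA box TATAAA was present in 11.98% of members, 23.8% of those not bound, 4.28% of CpG-island targets and 9.83% of all. For the CCAAT box CCAAT the members had the highest share, 47.1% against 37.1%, 36.2% and 35.7%.

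Words without a CpG pair gave no common order. TATAAA was present in 8.78% of CpG-poor members, below its share in all promoters. The AP-1 site TGACTCA was present in 11.5% of CpG-poor members, 7.78% of all members, 7.06% of those not bound, 2.20% of CpG-island targets and 3.54% of all promoters. The interferon element was present in 10.7%, 7.98%, 5.67%, 2.46% and 3.30% in the same order. The M-box TCATGTG, a word bound by the melanocyte factor MITF, was present in 3.44% of CpG-poor members, 2.40% of members, 4.48% of those not bound, 1.32% of CpG-island targets and 2.10% of all. The remaining words except the ZNF143 core hold a CpG pair, so their shares also move with CpG content. Shares are given for members, those not bound and all promoters. The E-box CACGTG was present in 6.19%, 4.50% and 8.65%, and the cyclic AMP element TGACGTCA in 1.40%, 0.618% and 2.70%. The NRF1 core GCATGCGC was present in 0.998%, 0.362% and 4.19%, and the YY1 core AAGATGGCG in 2%, 0.128% and 2.84%. For the ZNF143 core ACTACAATT the shares were 0.599%, 0.149% and 0.458%. A share describes letters in the reference and not occupancy by a factor.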

How the data were processed

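PHF8 was immunoprecipitated from SKMEL-147 chromatin in 3 replicates, with 2 inputs. As the labels and methods state, the authors mapped reads on hg19 by Bowtie2 and made narrow peak calls with MACS in each replicate against input. The submitters' processing notes also name bcl2fastq and Picard, whose settings are not given in the sources used here. The deposited lists give the fold enrichment at the summit as a linear ratio, and the p-value and q-value as −log10 values. Library depth is not given, and fragments at a summit were recovered as the whole number that reproduces both the fold enrichment and the Poisson p-value within 0.001. Amplified copies are not removed by this step.

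The peak lists were read with the GRCh37 sequence, the build named hg19 by the authors, and GENCODE release 44 lifted to GRCh37. The strongest peak meeting a promoter window by 1 bp represented a gene. Python 3.11.15, pandas 2.3.3, scipy 1.17.1 and pysam 0.24.0 were used, and the assignment and the fragment recovery were tested on simulated data.

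The members, the 18 gene lists and the 11 motifs were chosen with earlier results of these data known, and the search for the interferon element and the families in the closing section were added after seeing values. Genes were named as the 10 members with the highest mean percentile, the 10 highest of the CpG-poor class, the 3 lowest, the 2 nearest to each threshold on either side, and the members of each list (all up to 8, otherwise the 5 highest, with the lowest ZNF gene added after its value was seen). Sequences are those of the 5 highest CpG-poor members, the highest shared-peak member and the highest CpG-island target with a gene symbol and at most 30 exon bases in the printed run, a choice made after values were seen that added SV2A, ZBTB6 and TPRN. Genes on chromosome 8 were left out of the choice of sequences. A single condition was sampled, so conditions could not be compared. The sign-flip permutation test over 3 replicates gives p = 0.25 whenever all 3 differences share a sign, so it does not measure their spread. The spread between these libraries may be technical. The 51 members named by an identifier or as a readthrough pair were kept. Alternatives covered the TSS set, the window, the island thresholds and sequence window, peak cutoffs, the replicates required and each replicate left out. Some further items are not reported here.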

Additional observations from a re-analysis of the deposited data

How the results depend on the processing

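All settings kept the members below the CpG-island targets in fold enrichment and kept a higher downstream share of summits, which ran from 2.26 points with 1 TSS per gene to 11.7 with fold enrichment above 10, and from 6.995 to 8.51 with a replicate left out. The exact permutation p, 0.25 with 3 replicates and 0.50 with 2, is the smallest possible wherever the replicates have the same sign and says nothing about stability. The number of members was 251 with fold enrichment above 10, 891 with island thresholds of 0.55 and 0.65 and 166 with no island-like window within 1 kb of a TSS, and otherwise between 351 and 745. These follow from the construction of each setting, which keeps fewer peaks or redraws the island class.

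The shares below are, in this order, the percent of promoters without CpG-island sequence that were bound, the percent of members with an island-like summit and the percent with a peak reaching another gene's island TSS, followed by the log2 difference of median fold enrichment. They were 11.99, 47.6, 23.9 and -0.69 with 1 TSS per gene, 4.84, 56.2, 43.3 and -0.36 with fold enrichment above 10, and 15.1, 33.7, 27.5 and -0.58 with thresholds of 0.55 and 0.65. With no island-like window within 1 kb they were 4.12, 1.81, 0.602 and -1.26. A peak in at least 2 replicates gave 10.7, 37.7, 28.5 and -0.91, sequence of 1 kb at the TSS gave 12.9, 48.4, 18.3 and -0.68, and a window of 2 kb gave 11.3, 46.1, 37.7 and -0.74. Leaving out peaks that reach a neighbour's island TSS gave 6.99, 22.4, 0 and -1.07. Sequence of 200 bp gave 8.71, 47.9 and 32.5, and a window of 500 bp gave 8.88, 35.5 and 23.9, with the log2 difference within the spread between replicates. The summit in the window gave 36.3, 25.1 and -0.87 for the last 3 values, fold enrichment above 4 gave 40.3, 30.1 and -0.77, and leaving out unnamed and readthrough genes gave 36.7, 26.4 and -0.88, with the bound share moving by less than the spread between replicates. Leaving out a replicate gave bound shares of 9.77 to 10.2, island-like summits of 38.1 to 39.1, shared peaks of 28.7 to 29.1 and log2 differences of -0.90 to -0.86, and 507 to 531 members. A q-value below 0.001 and a single TSS bound in all 3 replicates moved no value beyond the spread between replicates. For other shifts the cause was not tested. No paired analysis was possible because the series has a single ChIP group. Depth limits the lower end, where members rested on as few as 9 fragments.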

Other observations

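Some further gene families were looked at after the values were seen, so their counts are a description, to be read beside the 9.65% of all genes without CpG-island sequence that were members. The butyrophilin genes next to the MHC, whose products are sensed by T cells, were members in 5 of 6 cases, 4 of them CpG-poor. These 5 lie on chromosome 6, where 18.3% of genes without CpG-island sequence were members. BTN2A1 was the highest at 22.3, 12.8 and 13.3 in A, B1 and B2, and BTN3A1 had 6.36, 4.76 and 5.93. Of 7 APOBEC3 genes, which code for cytidine deaminases that restrict retroelements, 4 were members, from APOBEC3C with 15.3, 15.3 and 13.1 to APOBEC3G with 4.35, 5.8 and 5.26. The SP100 family of nuclear body proteins gave 3 of 4, with SP100 at 38.0, 12.6 and 13.6, and the apolipoprotein L genes 3 of 6, with APOL2 at 10.6, 7.32 and 5.05. TRIM genes gave 5 of 31 (16.1%), all CpG-poor, with TRIM38 at 27.5, 9.32 and 10.8 and TRIM21 at 22.3, 10.4 and 9.0. Of 9 HLA class II genes 2 were members (22.2%, beside 18.3% of genes without CpG-island sequence on chromosome 6), HLA-DRA with 14.3, 3.0 and 3.88 and HLA-DMB with 16.8, 5.52 and 4.96.

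The counts that follow are also to be read beside the 9.65% of all genes without CpG-island sequence. The lists of MMP and integrin genes gave 0 of 12 and 0 of 7 members, too few genes for an absence to be read. Some single genes with matrix or membrane products were members with a CpG-poor summit, named after their values were seen and not as a group. SPARC, a matrix glycoprotein, had 22.7, 9.94 and 9.29, and the galectin gene LGALS1 had 24.6, 15.0 and 12.8. PLAT, the tissue plasminogen activator, had 8.96, 7.32 and 7.19. PDGFRB had 10.6, 7.16 and 5.91 and LOXL1, a lysyl oxidase, had 5.29, 5.08 and 4.59. Of 15 S100 genes without CpG-island sequence 4 were members, S100A1 and S100A13 sharing a peak of 26.9, 13.2 and 11.9. Of 6 HOX genes without CpG-island sequence 3 were members. HOXB3 and HOXB6 shared a peak of 13.5, 7.78 and 7.90. HOXC5, whose peak was shared with a neighbouring island TSS, had 8.43, 7.56 and 8.50.

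By chromosome, the share of genes without CpG-island sequence that were members ran from 1.14% of 88 on chromosome 21 to 18.3% of 295 on chromosome 6, beside 9.65% in all. It was 13.1% of 213 on chromosome 5, 12.9% of 417 on chromosome 19 and 12.9% of 101 on chromosome 22. A further 53 genes without CpG-island sequence had a promoter peak in 2 replicates and 100 in 1.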
